A study of Homo sapiens with 6 samples.

Results

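Stem and progenitor markers were followed as a set of 10 genes, CD24, CD44, PROM1, LGR5, SOX2, SOX4, SOX9, KLF4, KLF5 and BMI1. They were represented by every probe set of an Affymetrix HG-U133 Plus 2.0 array that the array annotation gives to exactly 1 gene, that gene being on the list. This held for 38 of the 54613 non-control probe sets and for 9 of the 19775 genes measured. BMI1 had no such probe set, because the one that reads it is also assigned to the readthrough gene COMMD3-BMI1. The study profiled PC9 cells, an EGFR-mutant non-small cell lung cancer line, and the drug-tolerant persisters (DTPs) that remain after erlotinib, an inhibitor of the EGFR kinase. The parental group was 3 arrays of cells given the vehicle DMSO, and the DTP group was 3 arrays of cells kept for 9 days in 2 µM erlotinib. All 6 arrays came from PC9 cells carrying a GFP vector, so both groups share it.

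Stem and progenitor cells are recognised by surface proteins such as CD24, CD44, PROM1 and LGR5, and by nuclear factors that keep cells undifferentiated or set their lineage, among them the SOX and KLF families and the Polycomb protein BMI1. Several of these genes are also used to enrich tumour cells able to start new growths, and SOX2 and KLF4 are part of the set that reprogrammes adult cells to pluripotency. In the lung, SOX2, SOX9 and KLF5 take part in the patterning of the airway and alveolar epithelium.

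The markers did not move as a block. In DTPs CD24 was 11.5-fold higher and SOX4 3.87-fold higher than in parental cells, whereas KLF4 was 7.61-fold lower, KLF5 2.05-fold lower and CD44 1.62-fold lower. SOX9 differed by 1.14-fold, and PROM1, LGR5 and SOX2 were dim in both groups. A gene was called when limma's Benjamini-Hochberg adjusted p over all genes was under 0.05 and the fold was over 1.5, on the brightest of its probe sets (those prone to cross-hybridization, with the suffix _x_at, used only where there was no other). By this measure 2 of the 9 measured markers were higher, where the share over all genes was 8.08%, and 3 were lower, where it was 6.13%. The adjusted p alone was passed by 6 of the 9, beside 44.5% of all genes. The parental and DTP arrays did not overlap for the same number of markers, 6, beside 53.7% of all genes. The median size of the log2 fold change, regardless of sign, was 0.70 over the 9 markers and 0.17 over all genes. With the sign kept, the medians were 0.02 and -0.05.

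**Figure D1:**
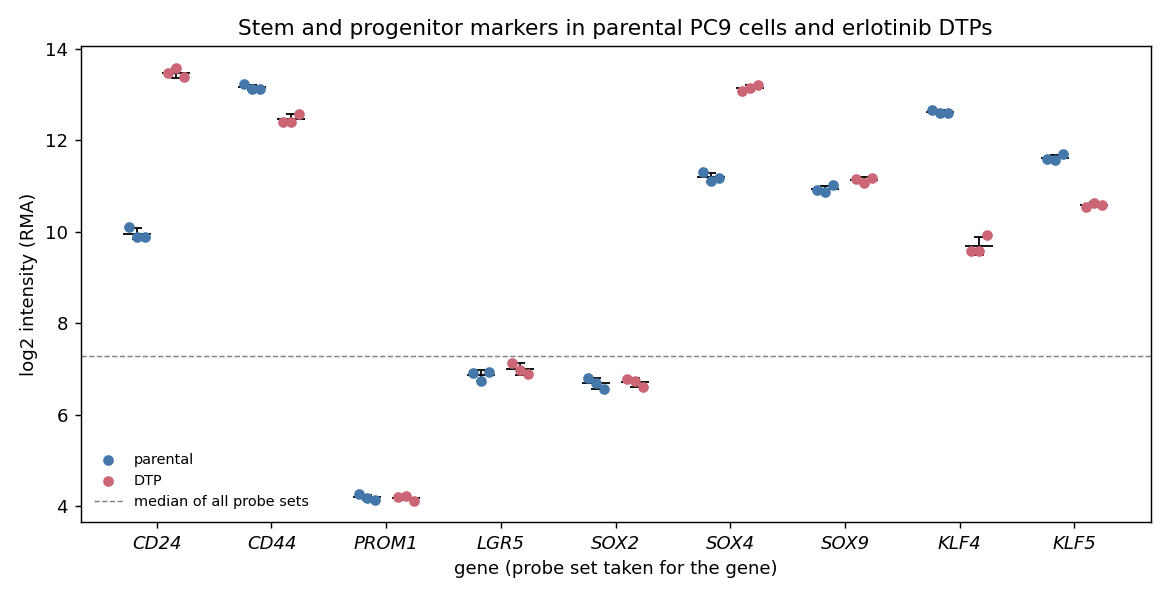
Log2 intensity (y axis) of the 9 measured markers (x axis) on each of the 3 parental arrays (blue) and 3 DTP arrays (red), with the mean as a horizontal bar and 1 SD as the error bar. The groups stand apart for CD24, SOX4, KLF4, KLF5 and CD44, and PROM1, LGR5 and SOX2 lie below the dashed median of all probe sets, 7.29.

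Several facts of the arrays touch every value below. The labels state that the DMSO cells were taken on day 3 at 100% confluency and the DTPs on day 10, whereas the series' design text gives 9 days for both, and this was not settled. Under the labels' account, time in culture and density cannot be told apart from the drug. The arrays hold bulk RNA, so fewer cells of a type and less RNA per cell cannot be told apart, nor can survival of a subset of cells from a change within cells. The labels do not say whether the arrays of a group came from separate cultures. The study's methods call replicates in general biological, from independent experiments, without naming these arrays. The p-values speak of the spread among these arrays. The array medians ran from 7.27 to 7.32. The difference between 3′ and 5′ control probe sets was lower in DTPs by 0.023 for GAPDH and 0.11 for ACTB on the log2 scale, each with a two-sided exact permutation p of 0.1, the smallest that 3 against 3 arrays can give. Its part in the marker values was not tested. All 8 epithelial markers checked (KRT7, KRT8, KRT18, KRT19, EPCAM, CDH1, CLDN4 and CLDN7) lay above the array median in both groups.

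The largest changes among the markers were those of CD24, SOX4 and KLF4. The bases just upstream of their transcription starts are shown so that the regulatory sequence can be read beside the values. They come from RefSeq (GRCh38.p14), which matched 8 of the 10 genes, and each run is the 250 bases before the most upstream start listed, written 5′ to 3′ on the gene's strand. The CD24 window is chr6:106975628-106975877 on the minus strand, that of SOX4 chr6:21593501-21593750 on the plus strand and that of KLF4 chr9:107489770-107490019 on the minus strand. Capitals mark matches, on either strand, to 6 short motifs: the GC box GGGCGG, the CACCC element bound by KLF proteins, the SOX element ACAAAG, the CCAAT box, the E-box CACGTG and the TEAD element GGAATG.
CD24: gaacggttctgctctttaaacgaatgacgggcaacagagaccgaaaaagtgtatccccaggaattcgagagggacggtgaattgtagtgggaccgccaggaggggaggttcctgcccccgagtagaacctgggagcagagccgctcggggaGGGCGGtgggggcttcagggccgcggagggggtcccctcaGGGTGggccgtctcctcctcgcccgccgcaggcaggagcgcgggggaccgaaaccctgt
SOX4: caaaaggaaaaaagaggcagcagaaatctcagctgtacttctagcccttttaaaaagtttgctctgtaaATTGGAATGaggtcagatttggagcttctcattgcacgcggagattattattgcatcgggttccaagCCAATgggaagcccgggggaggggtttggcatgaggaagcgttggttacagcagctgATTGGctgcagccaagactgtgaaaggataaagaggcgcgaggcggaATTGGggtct
KLF4: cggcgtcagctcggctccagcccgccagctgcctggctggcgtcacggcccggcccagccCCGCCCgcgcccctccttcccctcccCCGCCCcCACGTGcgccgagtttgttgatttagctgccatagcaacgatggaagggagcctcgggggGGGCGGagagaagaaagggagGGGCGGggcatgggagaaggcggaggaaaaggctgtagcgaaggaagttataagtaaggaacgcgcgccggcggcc
In the KLF4 window there were 4 GC boxes and 1 E-box. The SOX4 window held 4 CCAAT boxes and 1 TEAD element, which overlaps one of them, and no GC box. In the CD24 window there were 1 GC box and 1 CACCC element. Over all 35116 start windows of this length, 42.6% held a GC box, 54.7% a CACCC element, 32% a CCAAT box, 13.7% a SOX element, 11.9% a TEAD element and 6.34% an E-box. A match describes the letters only and marks no binding site.

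CD24 encodes a small, heavily glycosylated protein anchored to the cell surface by a lipid. Its log2 intensity was 10.09, 9.88 and 9.89 on the 3 parental arrays and 13.47, 13.59 and 13.37 on the 3 DTP arrays. Every DTP array stood more than 3 log2 units above every parental array. The log2 fold change was 3.52 ± 0.08 (SE, n = 3 per group, limma adjusted p = 9.51e-12), and 31 of the 19775 genes rose further. Each of the 6 CD24 probe sets was called higher, with log2 fold changes from 3.06 to 3.56, and the change of none differed by over 1.5-fold from the mean change of the others. RefSeq also lists 5 CD24 pseudogenes, and whether these probe sets also pick up their transcripts was not tested.

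CD44 is the receptor for hyaluronan, and its transcripts are spliced into a standard form and several variant forms. Its log2 intensity was 13.22, 13.13 and 13.11 on the parental arrays and 12.39, 12.39 and 12.58 on the DTP arrays. All 3 DTP arrays were lower, DTP replicate 3 the least so. The log2 fold change of this brightest probe set was -0.70 ± 0.08 (SE, n = 3 per group, limma adjusted p = 6.95e-06), and it is also the mildest of the 8 CD44 probe sets called lower, whose values ran to -1.09. The call on the gene value was lost when each array was centred on its ribosomal protein genes (-0.57) or its hybridization spike-ins (-0.52). Under either centring 12 in place of 13 marker probe sets were called lower, so the other CD44 probe sets called lower kept their calls.

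The 13 CD44 probe sets differed among themselves. Beside the 8 that were lower, 5 were not called. One of these, 217523_at, read higher in all 3 DTP arrays (log2 fold change 0.34, adjusted p over all probe sets 0.0135 by limma) without reaching the fold minimum. Another, 234411_x_at, read lower in all 3 DTP arrays (log2 fold change -0.45, adjusted p over all probe sets 0.0135 by limma). It also missed the fold minimum and lay below the array median. By 216056_at the log2 fold change was -0.10, and the groups overlapped. Set against the mean change of the gene's other probe sets, the log2 fold change of 217523_at was greater by 1.00 and that of 1565868_at by 0.93 (limma diffSplice, adjusted p = 1.72e-11 and 2.07e-10). The level of 1565868_at lay below the array median in both groups (6.03 in parental cells and 6.30 in DTPs), which overlapped. The change of 234418_x_at was greater by 0.67 in the same test, and its level was near the lowest on the arrays (4.13 in parental cells). Which part of the CD44 transcript each of these probe sets reads is not given in the sources used here.

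PROM1, the cholesterol-binding membrane protein also called CD133, had 1 probe set, with log2 intensities of 4.26, 4.18 and 4.14 on the parental arrays and 4.19, 4.22 and 4.12 on the DTP arrays. The groups overlapped, and all 6 values were far under the median of all probe sets, 7.29. Its log2 fold change was -0.01 ± 0.07 (SE, limma adjusted p = 0.889).

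LGR5 is the R-spondin receptor that marks stem cells of the intestinal crypt. Its brighter probe set, 210393_at, read 6.90, 6.73 and 6.94 on the parental arrays and 7.14, 6.97 and 6.89 on the DTP arrays, so the groups overlapped, with a log2 fold change of 0.14 ± 0.08 (SE, limma adjusted p = 0.188). The other, 213880_at, read 4.74, 4.43 and 4.61 on the parental arrays and 5.53, 5.52 and 6.06 on the DTP arrays. By 213880_at LGR5 was 2.16-fold higher (limma adjusted p over all probe sets 5.02e-05), and the changes of the 2 probe sets differed by 0.97 on the log2 scale (diffSplice adjusted p = 0.000232). The LGR5 call therefore depended on the probe set, and the gene was called higher when its probe sets were averaged or when the most variable one was taken. Both stood under the array median of 7.29 in either group.

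SOX4 is a transcription factor of progenitor cells and of many carcinomas. Its log2 intensity was 11.30, 11.11 and 11.16 on the parental arrays and 13.08, 13.15 and 13.20 on the DTP arrays, with no overlap and close replicates. The log2 fold change was 1.95 ± 0.07 (SE, n = 3 per group, limma adjusted p = 4.14e-10), and 164 genes rose further. Of its 6 probe sets, 5 were called higher, but over a wide range of sizes. The largest was 9.44-fold by 201416_at (log2 fold change 3.24), and the smallest of the 5 was 0.74 on the log2 scale by 213665_at. The sixth, 1567906_at, read 7.91, 7.82 and 7.74 on the parental arrays and between 7.58 and 8.19 on the DTP arrays, and the groups overlapped. In the diffSplice test the log2 fold changes of 4 of the 6 differed from the mean change of the gene's others, that of 201416_at by 1.78 upwards and that of 1567906_at by 1.98 downwards, so the direction of the SOX4 change was shared by the 5 while its size depended on the probe set.

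SOX9, a regulator of progenitor cells at the tips of the growing lung, was bright in both groups. Its log2 intensity was 10.90, 10.88 and 11.02 on the parental arrays and 11.14, 11.06 and 11.18 on the DTP arrays. The groups just failed to overlap. The log2 fold change of 0.19 ± 0.07 (SE) had a limma adjusted p of 0.0406 over all genes and of 0.0563 over all probe sets, so the adjusted p alone did not decide it, and the fold stayed under the minimum. The second SOX9 probe set gave 0.13 (limma adjusted p over all probe sets 0.285), and by it the groups overlapped.

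SOX2 maintains pluripotent and airway progenitor cells. All 4 of its probe sets stood under the array median. The brightest, 213722_at, read 6.81, 6.68 and 6.57 on the parental arrays and 6.77, 6.74 and 6.60 on the DTP arrays, which overlapped (log2 fold change 0.02 ± 0.08, limma adjusted p = 0.878). One other, 228038_at, read 6.00, 6.34 and 6.18 on the parental arrays and 5.19, 4.95 and 4.71 on the DTP arrays. By 228038_at SOX2 was 2.33-fold lower (limma adjusted p over all probe sets 8.36e-06), and its log2 fold change lay 1.05 below the mean change of the other SOX2 probe sets (diffSplice adjusted p = 1.5e-07). Without overlap, 214178_s_at also read lower but missed the fold minimum (-0.33, limma adjusted p over all probe sets 0.00761). For 213721_at the groups overlapped (-0.18). The SOX2 call therefore depended on the probe set. Averaged over all 4, the log2 fold change was -0.43, short of the fold minimum.

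KLF4 is a zinc-finger factor of differentiating epithelium and one of the reprogramming factors. Its log2 intensity was 12.67, 12.59 and 12.59 on the parental arrays and 9.58, 9.57 and 9.92 on the DTP arrays. The parental arrays lay within 0.1 of each other, and every DTP array was more than 2 log2 units below them. The log2 fold change was -2.93 ± 0.09 (SE, n = 3 per group, limma adjusted p = 9.16e-11), and 23 genes fell further. Its second probe set read 11.02, 11.13 and 11.12 on the parental arrays and 8.25, 8.25 and 8.36 on the DTP arrays, a log2 fold change of -2.80.

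KLF5 is a related factor of proliferating epithelial progenitors. Its log2 intensity was 11.58, 11.57 and 11.70 on the parental arrays and 10.53, 10.64 and 10.59 on the DTP arrays, again with no overlap. The log2 fold change was -1.03 ± 0.07 (SE, n = 3 per group, limma adjusted p = 8.68e-08), and the second probe set gave -1.08. KLF4 and KLF5 were both lower, and the fall of KLF4 was larger by 1.89 ± 0.13 (SE) on the log2 scale.

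BMI1 is a subunit of Polycomb repressive complex 1, which silences genes by histone ubiquitination. The probe set it shares with COMMD3-BMI1 read 10.49, 10.44 and 10.33 on the parental arrays and 10.10, 10.16 and 10.38 on the DTP arrays. DTP replicate 3 lay among the parental arrays, so the groups overlapped, and the log2 fold change of -0.21 ± 0.09 (SE) had a limma adjusted p of 0.0845 over all probe sets.

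The changes of related markers were also set against each other on the same arrays, in 3 pairs. The change of SOX4 exceeded that of SOX9 by 1.76 ± 0.09 (SE) on the log2 scale. That of CD24 exceeded that of CD44 by 4.22 ± 0.13. Each of the 3 pairs, KLF4 and KLF5 included, had a two-sided exact permutation p of 0.1, which is the smallest possible over the 20 regroupings of 6 arrays and remained 0.1 after Benjamini-Hochberg adjustment over the 3 pairs.

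Counted by probe set, 12 of the 38 were called higher, where the share over all probe sets was 7.56%, and 13 were called lower, where it was 4.93%. The 12 were the 6 of CD24, 5 of SOX4 and 1 of LGR5, and the 13 were 8 of CD44, both of KLF4, both of KLF5 and 1 of SOX2. Probe sets of 1 gene read the same RNA and are not independent. Of the 28 with a mean above the median of all probe sets 23 were called, and of the 10 below it 2. The shares called among all bright and all dim probe sets were not computed, so this split cannot be read as particular to the markers. Among the 37 probe sets that could be compared with others of their gene, the changes of 11 differed by over 1.5-fold in 4 genes (CD44, LGR5, SOX2 and SOX4), where 9.59% of all such probe sets did. No probe set of CD24, SOX9, KLF4 or KLF5 did. LGR5 has only 2 probe sets, so both of its entries among the 11 are the same contrast with the sign reversed.

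**Figure D2:**
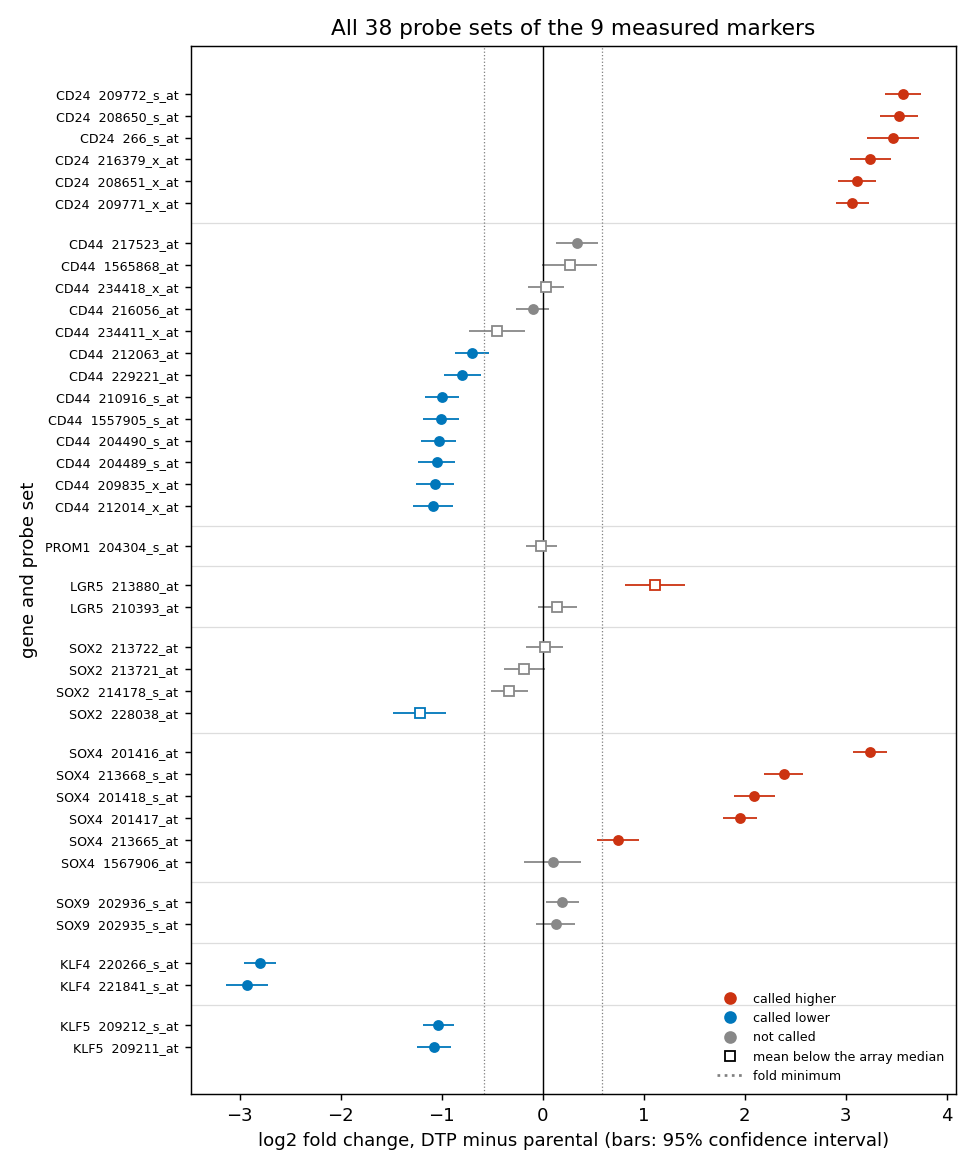
Log2 fold change (x axis) of each of the 38 probe sets, grouped by gene (y axis), with its 95% confidence interval. Red marks probe sets called higher in DTPs, blue lower and grey neither, open squares lie below the array median, and dotted lines mark the fold minimum of 1.5. The CD24, KLF4 and KLF5 probe sets cluster, while those of SOX4 run from 0.10 to 3.24 and those of CD44 from -1.09 to 0.34.

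Among the 3 DTP arrays, replicate 3 was the nearest to the parental mean for 20 of the 25 called probe sets, replicate 2 for 3 and replicate 1 for 2. Over the 5 called genes it was the nearest for 3, CD24, CD44 and KLF4. The calls did not rest on it: with any 1 of the 6 arrays left out, 2 markers were higher and 3 lower. The place of replicate 3 over all called probe sets was not computed, so its place here cannot be read as particular to the markers.

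**Figure D3:**
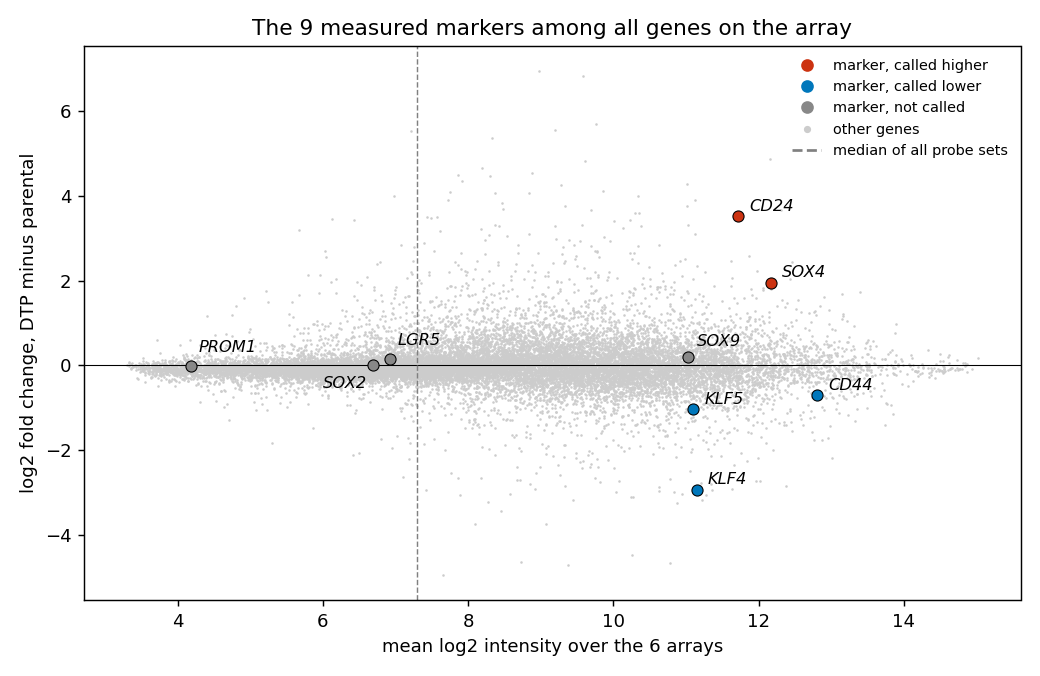
Log2 fold change (y axis) against mean log2 intensity over the 6 arrays (x axis) for all 19775 genes (grey) and the 9 measured markers (larger points, coloured by call). CD24, SOX4 and KLF4 lie at the edge of the cloud among bright genes, and PROM1, LGR5 and SOX2 lie left of the dashed median with log2 fold changes of -0.01, 0.14 and 0.02.

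For each called marker, the genes with the most similar pattern were sought among 13106 genes, by the root mean square difference over the 6 arrays after each gene's parental mean was subtracted. Nearest to CD24 were BPGM, an enzyme that makes the red-cell metabolite bisphosphoglycerate, at 0.117, and GABBR2, a subunit of the GABA-B receptor, at 0.118. Nearest to SOX4 were the Wnt receptor FZD2 at 0.0187 and the chemokine CXCL16 at 0.0603. The membrane protein EMP1 (0.0447) and the synaptic scaffold gene ERC2 (0.0679) were nearest to KLF4. The pseudogene SEPTIN7P13 (0.0269) and the tight junction gene OCLN (0.0336) were nearest to KLF5. RUVBL1 (0.0244), a helicase of chromatin-remodelling complexes, and RABGGTB (0.0251), a subunit of Rab geranylgeranyl transferase, were nearest to CD44. With 2 groups this measure finds mainly genes of similar fold.

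Genes related to the markers were described by 8 lists, each read against the 8.08% of all genes called higher and 6.13% called lower. Of 28 other stem cell and tumour-initiating cell markers, 6 were higher, 5 lower and 17 neither, with a median log2 fold change of 0.03. L1CAM, a neural adhesion molecule, had the largest log2 fold change of the list by the probe set taken: it read 6.51, 6.74 and 7.15 on the parental arrays and 10.47, 11.25 and 10.87 on the DTP arrays, 16.7-fold higher (limma adjusted p = 1.79e-09). Averaged over its 2 probe sets, its log2 fold change was 2.33 in place of 4.06, and its parental mean of 6.80 lay below the array median, so the size of the fold is uncertain. DCLK1, a kinase of intestinal tuft cells, was 11.1-fold higher (log2 fold change 3.47, limma adjusted p = 5.73e-10), from a parental mean of 5.75 that lay below the array median, with 3 of its 4 probe sets called and an averaged log2 fold change of 1.78. ITGA6, the integrin α6 subunit found on many epithelial stem cells, was lower by 3.21-fold (limma adjusted p = 8.21e-09). No gene of the 13 measured pluripotency factors was higher and 2 were lower, MYC (log2 fold change -1.40) and the telomerase subunit TERT (-1.69). SALL4, named after its values were seen, did not overlap and missed the fold minimum (log2 fold change 0.48, limma adjusted p = 0.000251). Either centring, on ribosomal protein genes or spike-ins, called 1 of the 13 higher and 2 lower. NANOG, LIN28A, LIN28B, DPPA2, DPPA4, UTF1 and ZFP42 lay below the array median in both groups.

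Of 16 other SOX genes none was called higher, 4 were lower and 12 neither, led by SOX7 (log2 fold change -2.22), a factor of endoderm and endothelium, SOX13 (-1.29) and SOX12 (-0.64), and none called higher among 16 is close to the share over all genes. SOX6, named after its values were seen, did not overlap and missed the fold minimum narrowly (log2 fold change 0.56, limma adjusted p = 5.11e-05). Either centring, on ribosomal protein genes or spike-ins, called 1 of the 16 higher and 2 lower. Of 15 other KLF genes 5 were lower, 1 was higher and 9 neither. The lower ones included KLF9 (-1.45), KLF2 (-1.08) and KLF3 (-1.02). For KLF9, 2 of 5 probe sets were called, and its averaged log2 fold change was -0.71. The KLF2 and SOX12 calls were lost when probe sets were averaged. Of 20 Polycomb genes 1 was higher and 2 lower, PCGF3 (1.17) against PCGF5 (-0.68) and CBX7 (-0.60), and the PCGF3 call rested on 1 of its 5 probe sets. The PCGF3 and PCGF5 calls were lost when probe sets were averaged (0.38 and -0.51), and under either centring no Polycomb gene was called lower.

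Of 17 CD44 ligands, linkers and splicing factors, 5 were higher and 2 lower, with a median of 0.20. ESRP1, an epithelial splicing factor known to act on CD44, was lower (log2 fold change -1.31, limma adjusted p = 1.11e-08), as was HMMR, a second hyaluronan receptor (-0.80). NF2, or merlin, was higher (0.69, limma adjusted p = 3.68e-06), by 1 of its 8 probe sets. Another of the 8 had the opposite sign, and the NF2 call was lost when they were averaged (0.37). In the LGR and R-spondin list of 16 genes 2 were higher, RGMB (1.13, or 0.65 averaged over its 4 probe sets) and the ligand RSPO3 (0.72), the latter below the array median in both groups, and none was lower. Of 16 airway basal and alveolar progenitor markers 2 were higher, the keratin KRT5 (1.30) and GATA6 (1.26), and 2 were lower. GATA6 was called by 1 of its 2 probe sets, with an averaged log2 fold change of 0.65. Other keratins of basal cells, named after their values were seen, read lower without reaching the fold minimum, KRT15 at -0.49 (limma adjusted p = 0.00109) and KRT14 at -0.28 (limma adjusted p = 0.0293), the latter below the array median. ETV5, an ETS factor of alveolar type II cells, was 8.56-fold lower (log2 fold change -3.10, limma adjusted p = 1.12e-10), or -2.40 averaged over its 5 probe sets.

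**Figure D4:**
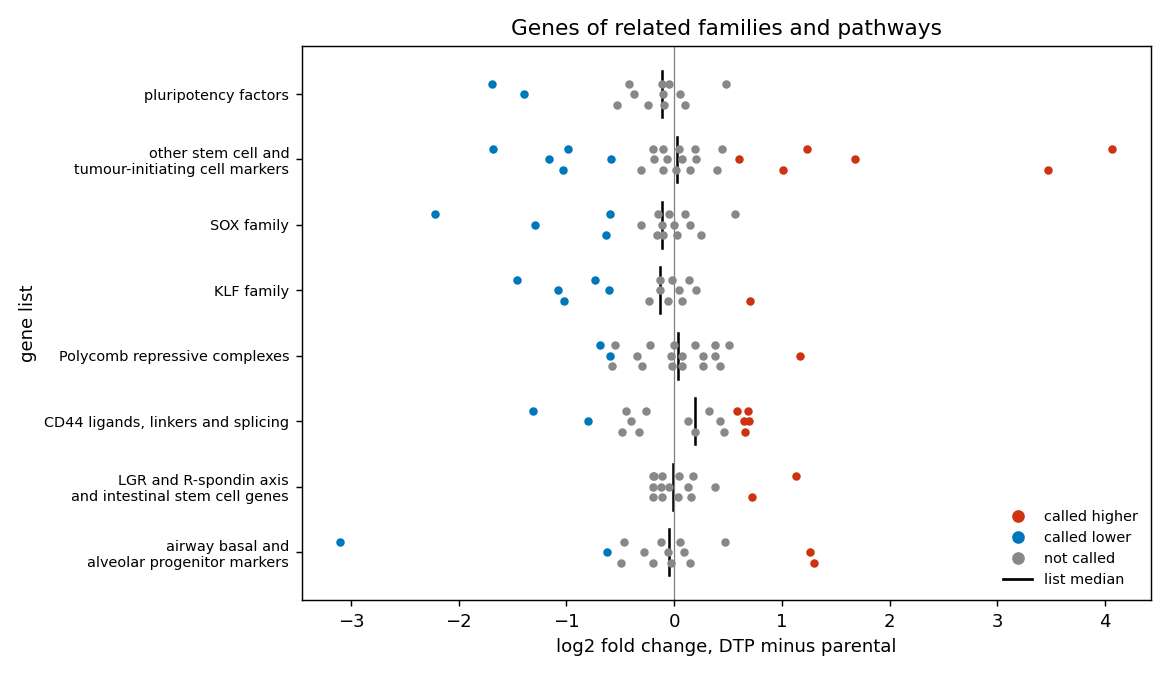
Log2 fold change (x axis) of the measured genes of the 8 related lists (y axis), coloured by call, with the list median as a black line. NGFR, EPCAM and NES, which stand in several lists, are not drawn but count in the medians. The medians lie between -0.13 and 0.20, and calls in both directions occur in 5 of the lists.

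Markers of other cell types were read on the same arrays, since several stem cell markers are also made by them. Their counts stand beside the same 8.08% of all genes called higher and 6.13% called lower. Of 8 fibroblast markers 1 was called, COL1A1, which was higher (log2 fold change 2.67, or 1.51 averaged over its 5 probe sets). The summed log2 level of the fibroblast list ran from 54.3 to 55.0 in parental cells and from 56.6 to 57.5 in DTPs, with 3 of the 8 above the array median in parental cells and 2 in DTPs. Of 6 endothelial markers 1 was lower, PECAM1 (-0.69, or -1.29 averaged), and 4 lay above the array median in both groups. The endothelial sum was 45.8 to 46.2 in parental cells and 44.5 to 45.2 in DTPs. Of 5 blood cell markers none was called (CD14, with the smallest p, had a log2 fold change of 0.34), and the parental sums of 35.1 to 35.2 lay within the range of the DTP sums. Of 5 neural stem cell markers PAX6 was lower (-1.17), and the sum was 36.2 to 36.6 in parental cells and 34.7 to 35.2 in DTPs. Of 8 epithelial markers KRT7 was higher (0.97) and CLDN7 lower (-0.59), and the sum was 103.8 to 104.0 in parental cells and 104.9 to 105.4 in DTPs. The KRT7 call rested on 1 of its 4 probe sets and was lost when they were averaged (0.38), and the CLDN7 and PECAM1 calls were lost under either centring. The sums of the fibroblast, endothelial, neural and epithelial lists did not overlap between groups. A sum can be moved by 1 gene, and COL1A1, PECAM1, PAX6 and KRT7 had the largest changes of their lists. In the same order, the median log2 fold changes of the lists were -0.03, -0.12, -0.07 and 0.17. The part that the differences in these sums play in the marker values was not tested.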

How the data were processed

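RNA of 3 parental and 3 DTP samples of PC9 cells with a GFP vector was hybridized to Affymetrix HG-U133 Plus 2.0 arrays. The log2 values deposited by the authors were made with RMA in the affy package, and the methods name quantile normalization, with no version given in the sources used here. The arrays' number limits the precision. The table holds 54675 probe sets, of which 62 controls were left out. GEO's platform annotation gave 1 gene symbol to 41091 of the rest, several to 1801 and none to 11721, and no gene was named from a probe set with several. Groups came from the labels.

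One value per gene was the probe set with the highest mean, without suffix _x_at where possible. Two-sided tests used limma 3.58.1 in R 4.3.3 (lmFit, eBayes, no covariates) over all genes or all probe sets, with Benjamini-Hochberg adjustment. Probe sets of 1 gene were compared with diffSplice. The scripts were tested on simulated data. The members, the gene lists and the tests were chosen with earlier results of these data known. Named from each list were up to 3 called genes with the largest change (or the 1 with the smallest p), and the 2 genes nearest to each called marker. Alternatives covered the replicate block, each array left out, cyclic loess, centring, a filter on dim probe sets, variance models, thresholds, the methods' t-test and the choice of probe set.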

Additional observations from a re-analysis of the deposited data

How the results depend on the processing

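Of 150 alternative values for the 9 marker genes, 135 kept direction and side of the threshold. The replicate block, the dim filter, the intensity-trend variance model and the t-test left the folds of the markers kept unchanged. Agreement in direction under these settings therefore says little. Other thresholds are not among the 150. With a fold over 2, 2 markers were higher and 2 lower, and with the adjusted p alone 3 and 3. CD24, SOX4, SOX9, KLF4 and KLF5 did so in 17 of 17, with log2 fold changes of 3.06 to 3.70, 1.75 to 3.24, 0.13 to 0.37, -3.04 to -2.75 and -1.08 to -0.85. The gene value of CD44 was no longer called when centred on ribosomal protein genes (-0.57) or spike-ins (-0.52), though its other called probe sets stayed called. Averaged over all its probe sets, CD44 only just passed the fold minimum (-0.588, where a size of 0.585 was needed). LGR5 became called with the mean (0.63) or most variable (1.11) probe set. PROM1 changed sign with cyclic loess (0.054), centring on ribosomal protein genes (0.12) or spike-ins (0.16) and array weights (0.00417), and ran from -0.040 to 0.019 with 1 array left out. SOX2 changed sign with the mean (-0.43) or most variable (-1.22) probe set, the latter a call, and ran from -0.041 to 0.080 with 1 array left out. No PROM1 value and no such SOX2 value with 1 array left out was called. With 1 array left out, the markers called stayed at 2 higher and 3 lower, and all genes at 1552 to 1657 higher and 1134 to 1352 lower.

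Centring on ribosomal protein genes raised every log2 fold change by 0.13 and on spike-ins by 0.18, and the part of all calls that was higher went from 56.9% to 72.3% and 76.9%. With spike-ins 2437 genes were higher and 730 lower. With ribosomal centring the lists gave 1 pluripotency factor higher, 1 SOX gene higher and 2 lower, 2 Polycomb genes higher and 0 lower, 1 airway or alveolar marker lower, and 0 epithelial or endothelial markers lower. With spike-ins they gave 1 pluripotency factor higher, 1 SOX gene higher and 2 lower, 3 KLF genes lower, 3 Polycomb genes higher and 0 lower, 1 airway or alveolar marker lower, 2 epithelial markers higher and 0 lower, and 0 endothelial markers lower. With dim probe sets left out, 6 in place of 11 differed from the others of their gene. The filter changed both the probe sets tested and the mean changes they were set against. With the adjusted p alone 4043 genes were higher and 4754 lower, and with a fold over 2, 679 and 431.

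The sample numbers did not pair the arrays (same-number correlations of -0.127, 0.0826 and -0.0462). The replicate block left 1597 genes higher and 1212 lower, the same counts as without it. This says little about stability, because the balanced block leaves every fold unchanged and all 1597 and 1212 genes past the fold minimum were also past the adjusted p. The cause of the other changes was not tested. PROM1, LGR5 and SOX2 were dim, and their signal over background was not measured.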
